A study of Homo sapiens with 8 samples.

Results

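The complement and acute-phase genes described here are 9 genes followed in U2OS cells, a human osteosarcoma line, across TNF-α stimulation and knockdown (KD) of WSB2. They were given as symbols, C1R, C1S, C3, CFB, SERPING1, CD55, PTX3, SAA1 and LCN2, and each was matched to its Ensembl identifier by release 29 of GENCODE among the 58735 genes of the tables. The cells carried a control shRNA (control cells, labelled WT) or an shRNA against WSB2 (KD cells), and each kind was left unstimulated or was treated with TNF-α for 5 h, which gave 4 groups of 2 bulk RNA-seq libraries. The shRNAs were delivered by lentivirus and the cells selected with puromycin, so all groups share that handling. The sources used here do not say which WSB2 shRNA, what TNF-α concentration, or whether clones or pools were sequenced, and loss of WSB2 and other effects of the shRNA cannot be told apart in this design. Nothing in the labels says that the 2 libraries of a group came from separate cultures, so p-values measure the spread between these libraries, which may be technical. WSB2 is a substrate-recognition protein of a ubiquitin ligase, and the comparison of KD with control cells asks how its loss bears on the genes that TNF-α switches on.

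Complement is a cascade of plasma proteins that tags cells and microbes for removal. In the classical pathway the proteases C1r and C1s, bound to C1q, cut C4 and C2, and every pathway meets at C3, which the alternative pathway cuts with a convertase built on factor B. Host cells are guarded by inhibitors such as C1 inhibitor in plasma and CD55 on the membrane. The acute phase is the change in secreted proteins that follows tissue injury or infection. The liver makes most complement and acute-phase proteins under the control of interleukin 6, interleukin 1 and TNF-α, while pentraxin 3, lipocalin 2 and some C3 are also made by connective tissue and other cells at the site of inflammation. NF-κB and the C/EBP and STAT factors are the usual regulators of these genes.

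The libraries held between 15601098 and 18677023 reads recovered from the deposited FPKM, in which fragments are divided by gene length and library size. The 2 unstimulated KD libraries stood apart from the other 6. Reads of mitochondrial genes took 4.10% and 4.42% of their totals, against 1.11% to 2.03% elsewhere. Their read-weighted GC content was 50.6% and 50.1%, against 53.2% to 53.8%, and 26225 and 26397 genes had at least 1 read, against 22072 to 22957. The library size used for scaling was 1.21 times the total reads in both, and 0.925 to 1.03 times in the others. Each comparison that uses these 2 libraries is therefore also given with other scalings and after a GC and length correction of each library.

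**Figure D1:**
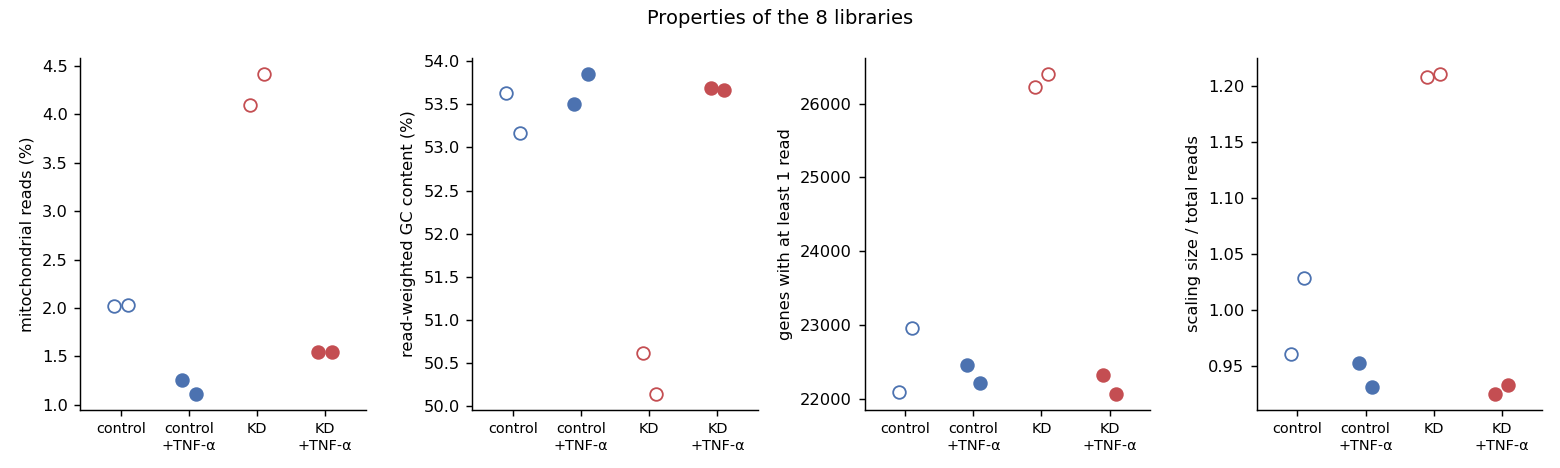
Properties of the 8 libraries by group, with 1 point per library: reads of mitochondrial genes (% of reads), read-weighted GC content (%), genes with at least 1 read, and the scaling size divided by the total reads. The 2 unstimulated KD libraries lie apart from the other 6 in all 4 panels, for example at 4.10% and 4.42% mitochondrial reads.

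WSB2 itself stood at 27.7 and 28.0 FPKM in unstimulated control cells, 8.38 and 8.52 in unstimulated KD cells, 25.0 and 25.3 in TNF-α-stimulated control cells and 9.002 and 9.18 in TNF-α-stimulated KD cells. The KD libraries were low in both states, and the groups did not overlap. NFKBIA and TNFAIP3, feedback inhibitors that NF-κB induces, separated the stimulated from the unstimulated libraries. NFKBIA went from 24.7 and 20.0 FPKM to 153 and 161 in control cells, and TNFAIP3 from 1.74 and 1.82 FPKM to 39.8 and 39.3. In KD cells NFKBIA went from 16.3 and 14.4 FPKM to 163 and 165, and TNFAIP3 from 2.60 and 2.61 FPKM to 41.4 and 42.3.

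Of the markers of the osteoblast lineage 3 were abundant and 7 were low or absent, and those of liver and blood were near 0. The 10 osteoblast-lineage markers summed to between 539 and 777 FPKM per library, with SPARC (216 to 293 FPKM) the most abundant in 7 of 8 libraries and COL1A1 in the remaining library, TNF-α-stimulated control 2. Nearly all of that sum was SPARC, COL1A1 and VIM, at means over the 8 libraries of 256, 231 and 176 FPKM. ALPL (3.56 FPKM), RUNX2 (1.93), SPP1 (1.28), BGLAP (0.160) and COL1A2 (0.0547) had low means, IBSP had no read in any library and SP7 had 1 read in all. The 8 hepatocyte markers summed to between 0.0911 and 0.487 FPKM per library, none passed the read filter, and APOA2, TTR, AHSG and FGB had no read in any library. The 8 leukocyte markers summed to between 0.160 and 0.595 FPKM. Their most abundant gene was SPI1 in 3 unstimulated libraries, CD14 in unstimulated control 2 and ITGAM in all 4 stimulated libraries, and only ITGAM passed the read filter. In bulk RNA, fewer cells that express a gene and less RNA per cell cannot be told apart.

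Depth decided what could be said of each gene. Genes were tested when at least 2 libraries held at least 10 reads at the median depth and all libraries together at least 15 reads, which kept 16528 genes and 8 of these 9. CFB had too few reads, at 2, 10, 0, 4, 4, 3, 10 and 6 in the order unstimulated control, unstimulated KD, TNF-α-stimulated control and TNF-α-stimulated KD, 39 in all. LCN2 (22 to 64 reads per library), SAA1 (19 to 83) and C1S (51 to 156) passed with little depth. C1R held 168 to 265 reads, CD55 327 to 482, SERPING1 421 to 666, C3 434 to 1732 and PTX3 156 to 2985.

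Some of these genes share exonic sequence with a neighbour, and the strand setting of the counting is not given in the sources used here. AL645922.1, a readthrough gene on the same strand that is listed at 0 in all 8 libraries, overlaps 2249 exonic bases of CFB and C2 overlaps 23, together 45.5% of its exonic bases, which makes the CFB level uncertain beyond its low count. SAA1 shares 28.5% of its exonic stretches of 100 bases with SAA2, which held 37 reads in all, so reads of the pair may be split or dropped. SAA1 also shares 10.1% of those stretches with SAA2-SAA4, which is listed at 0 in all 8 libraries. C1RL on the same strand overlaps 11.4% of C1R, RNA5SP334 on the same strand 6.41% of SAA1, VEPH1 on the opposite strand 3.66% of PTX3, and EMG1 on the same strand 3.54% of C1S. C3, SERPING1, LCN2 and CD55 had no exonic overlap and no shared stretch.

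The promoter letters of 3 genes are shown because each of them holds a κB match while they differ in level. RefSeq promoter windows on GRCh38.p14, which run from 250 bases before to 50 bases after the annotated start, were matched for 5 of the 9 genes, CFB, C1R, PTX3, LCN2 and CD55, with 2 windows for C1R. Capitals mark matches to any of 4 motifs searched on both strands: the κB motif, the C/EBP motif TTNNGCAA, the STAT motif TTCNNNGAA, and the IRF motif, a pair of GAAA runs with a pair of any bases between them. PTX3 is read on the plus strand from chr3:157436600-157436899, LCN2 on the plus strand from chr9:128149203-128149502, and CFB on the plus strand from chr6:31945845-31946144.
PTX3: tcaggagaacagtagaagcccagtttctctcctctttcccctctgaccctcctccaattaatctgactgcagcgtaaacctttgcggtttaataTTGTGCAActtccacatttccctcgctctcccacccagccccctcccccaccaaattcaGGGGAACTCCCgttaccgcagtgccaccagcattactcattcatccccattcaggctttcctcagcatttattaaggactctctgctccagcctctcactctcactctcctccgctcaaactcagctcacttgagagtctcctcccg
LCN2: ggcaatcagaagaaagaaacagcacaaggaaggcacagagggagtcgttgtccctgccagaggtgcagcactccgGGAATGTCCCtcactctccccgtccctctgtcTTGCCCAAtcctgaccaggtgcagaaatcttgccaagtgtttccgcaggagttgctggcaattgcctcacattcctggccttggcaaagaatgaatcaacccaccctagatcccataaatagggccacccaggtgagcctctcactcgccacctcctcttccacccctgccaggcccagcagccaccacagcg
CFB: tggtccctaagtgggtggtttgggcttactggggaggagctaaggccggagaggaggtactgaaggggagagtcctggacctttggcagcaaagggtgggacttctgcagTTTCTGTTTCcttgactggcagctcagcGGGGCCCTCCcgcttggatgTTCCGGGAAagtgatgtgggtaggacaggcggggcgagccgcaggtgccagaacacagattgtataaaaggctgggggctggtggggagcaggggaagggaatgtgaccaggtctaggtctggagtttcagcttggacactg
Counted from the RefSeq start, PTX3 held overlapping κB matches from -97 to -88 and from -96 to -87 and a C/EBP match from -156 to -149. LCN2 held a κB match from -175 to -166 and a C/EBP match from -143 to -136. CFB held an IRF match from -140 to -131, a κB match from -112 to -103 and a STAT match from -92 to -84. Both C1R windows held a C/EBP match and 1 of them a STAT match as well, and the CD55 window held none of the 4. Among all 35116 windows, 11.3% held the κB motif, 10.5% the C/EBP motif, 7.66% the STAT motif and 3.57% the IRF motif. A match describes letters and not binding.

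**Figure D2:**
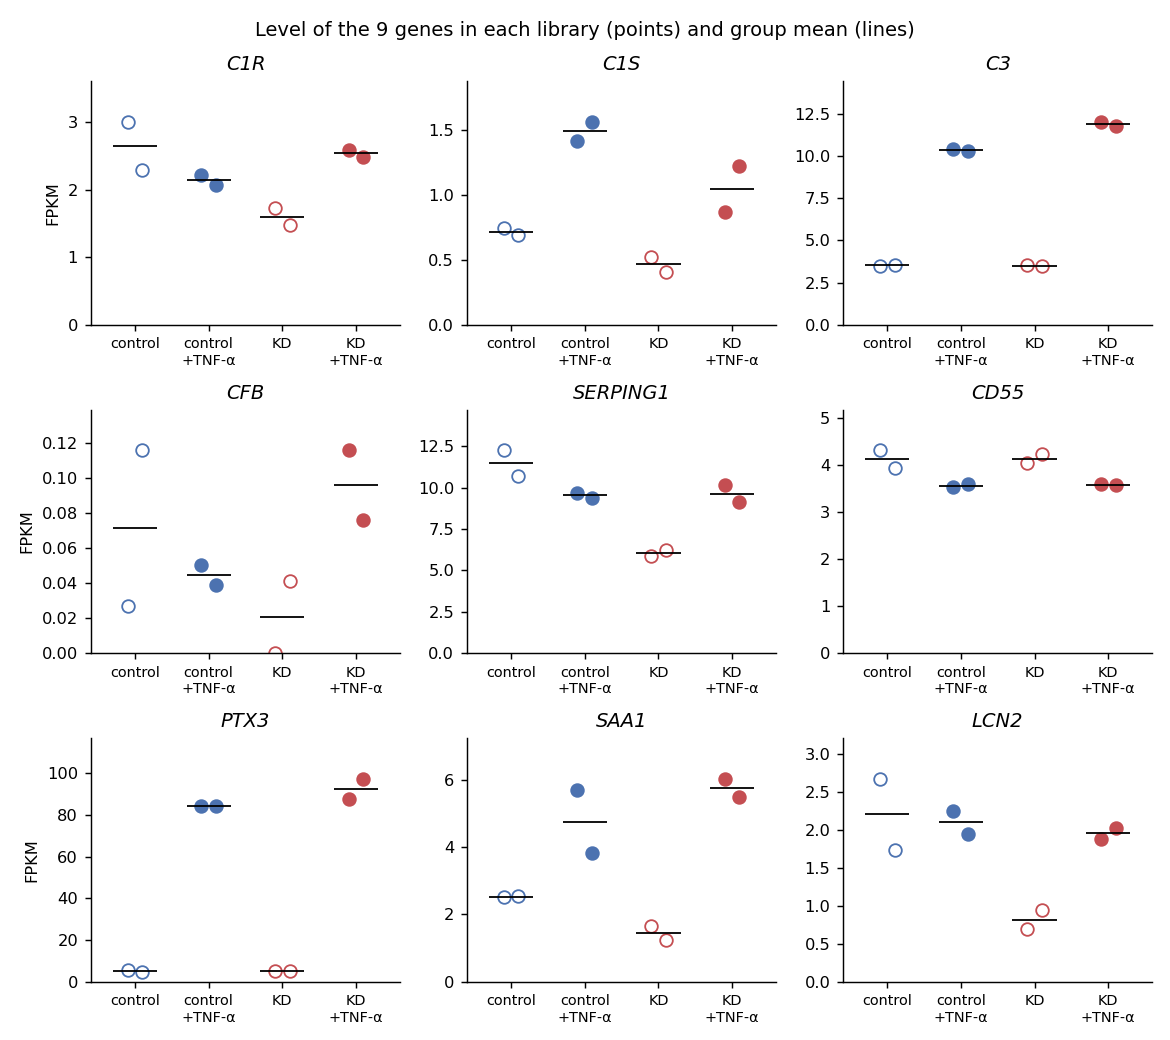
FPKM of the 9 genes in each library (points; blue, control cells; red, KD cells; filled, TNF-α for 5 h) with the group mean (line), each panel on its own linear axis from 0. PTX3 and C3 rise with TNF-α in both kinds of cell, SERPING1 and LCN2 are lowest in the unstimulated KD libraries, and CFB stays at or under 0.116 FPKM.

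Of the complement proteases and C3, the levels of C1R and C1S were low, C3 was higher, and CFB was near the limit of counting. C1R (ENSG00000159403), the protease that activates C1s, lies on chromosome 12 at 7080199 to 7092607 (GRCh38, as are all gene positions here). It stood at 3.004 and 2.29 FPKM in unstimulated control cells, 1.72 and 1.48 in unstimulated KD cells, 2.22 and 2.07 in TNF-α-stimulated control cells and 2.59 and 2.48 in TNF-α-stimulated KD cells. The unstimulated KD libraries were the 2 lowest, and the unstimulated control libraries spanned the stimulated KD libraries. C1S (ENSG00000182326), the protease that cuts C4 and C2, lies 9166 bases from C1R on chromosome 12 at 6988259 to 7071032, in the opposite orientation. Its levels were 0.743 and 0.688 FPKM in unstimulated control cells, 0.523 and 0.409 in unstimulated KD cells, 1.42 and 1.57 in stimulated control cells and 0.869 and 1.22 in stimulated KD cells. The 4 groups of C1S did not overlap, and stimulated control cells were highest.

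C3 (ENSG00000125730, chromosome 19 at 6677704 to 6730562) encodes the protein on which all complement pathways converge. It stood at 3.48 and 3.57 FPKM in unstimulated control cells, 3.56 and 3.46 in unstimulated KD cells, 10.4 and 10.3 in stimulated control cells and 12.04 and 11.8 in stimulated KD cells. The unstimulated groups overlapped, all 4 stimulated libraries were higher, and stimulated KD cells were above stimulated control cells without overlap. CFB (ENSG00000243649, chromosome 6 at 31945650 to 31952084), the protease subunit of the alternative-pathway convertase, stood at 0.0267 and 0.116 FPKM in unstimulated control cells, 0 and 0.0415 in unstimulated KD cells, 0.0503 and 0.0389 in stimulated control cells and 0.116 and 0.0760 in stimulated KD cells. The 2 stimulated KD libraries of CFB, with 10 and 6 reads, lay above those of stimulated control cells, with 4 and 3, and of unstimulated KD cells, with 0 and 4, while they overlapped those of unstimulated control cells, with 2 and 10. The library at 0, unstimulated KD 1, allows a level of up to 0.0303 FPKM (3 reads, counting error only). CFB was below the read filter and was not tested.

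No test compared the 2 inhibitors, whose levels follow at the deposited scaling. SERPING1 (ENSG00000149131, chromosome 11 at 57597387 to 57614853) encodes C1 inhibitor, which inactivates C1r and C1s. It stood at 12.3 and 10.7 FPKM in unstimulated control cells, 5.90 and 6.25 in unstimulated KD cells, 9.66 and 9.38 in stimulated control cells and 10.2 and 9.11 in stimulated KD cells. Unstimulated control cells were highest, unstimulated KD cells were lowest without overlap, and the stimulated groups overlapped between them. CD55 (ENSG00000196352, chromosome 1 at 207321376 to 207386804) encodes decay-accelerating factor, which takes apart C3 convertases on the cell surface. It stood at 4.31 and 3.94 FPKM in unstimulated control cells, 4.03 and 4.23 in unstimulated KD cells, 3.52 and 3.59 in stimulated control cells and 3.59 and 3.57 in stimulated KD cells. All 4 stimulated libraries of CD55 lay below all 4 unstimulated libraries, and KD and control cells overlapped in both states.

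Among the acute-phase genes the span was wide. PTX3 (ENSG00000163661, chromosome 3 at 157436789 to 157443628) encodes pentraxin 3, a secreted pattern-recognition protein that binds C1q. It stood at 5.501 and 4.65 FPKM in unstimulated control cells, 5.12 and 5.29 in unstimulated KD cells, 84.3 and 84.3 in stimulated control cells and 87.7 and 97.3 in stimulated KD cells. The stimulated and unstimulated libraries were far apart, while the unstimulated groups overlapped. SAA1 (ENSG00000173432, chromosome 11 at 18266174 to 18269977) encodes serum amyloid A1, an apolipoprotein of the acute phase. Its levels were 2.51 and 2.54 FPKM in unstimulated control cells, 1.65 and 1.24 in unstimulated KD cells, 5.68 and 3.83 in stimulated control cells and 6.03 and 5.48 in stimulated KD cells. The stimulated groups overlapped, and the unstimulated KD libraries were the 2 lowest. LCN2 (ENSG00000148346, chromosome 9 at 128149071 to 128153455) encodes lipocalin 2, which withholds iron from bacteria by binding their siderophores. It stood at 2.67 and 1.74 FPKM in unstimulated control cells, 0.695 and 0.940 in unstimulated KD cells, 2.24 and 1.95 in stimulated control cells and 1.88 and 2.02 in stimulated KD cells. The unstimulated KD libraries of LCN2 were lowest, and the other groups overlapped.

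FPKM is divided by gene length, here all annotated exonic bases of a gene, such as 5908 for CD55 and 1940 for PTX3. Which transcripts were expressed was not determined, so the order of genes by level is approximate. In unstimulated control cells SERPING1 had the highest mean level of the 9 genes at 11.5 ± 1.12 FPKM (SD, n = 2), followed by PTX3 at 5.07 ± 0.605 and CD55 at 4.13 ± 0.263. In stimulated control cells PTX3 led at 84.3 ± 0.0384 FPKM (SD, n = 2), followed by C3 at 10.4 ± 0.0735 and SERPING1 at 9.52 ± 0.202. In stimulated KD cells the same 3 genes led in the same order, with PTX3 at 92.5 ± 6.79, C3 at 11.9 ± 0.169 and SERPING1 at 9.63 ± 0.735 FPKM. CFB was last in all 4 groups, and C1S was next to last.

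With TNF-α in control cells, PTX3 rose 16.6-fold, C3 2.94-fold and C1S 2.09-fold in mean FPKM, and no other of the 8 tested genes passed the test. On the log2(FPKM + 1) scale changes look smaller than they are, most at about 1 FPKM or less but also at a few FPKM, where most of these genes lie. This holds for every log2 fold change and interaction on that scale given here. With it, limma gave PTX3 a log2 fold change of 3.82 ± 0.0924 (SE, adjusted p = 7.9e-07), C3 1.33 ± 0.0806 (adjusted p = 9.6e-05) and C1S 0.54 ± 0.106 (adjusted p = 0.0338). So 3 of 9 were called, all higher, where 3.1% of all tested genes were called higher and 1.14% lower at an adjusted p under 0.05. Of those calls 73.0% were higher, and 60.3% with scaling to total reads. The median over the 8 genes was 0.25, against 0.0085 over all tested genes. The 9 genes were chosen with earlier results of these data known. Their counts and medians, here and below, therefore describe these genes and are no test of enrichment. SAA1 was 1.88-fold higher in mean level with an estimate of 0.69 that missed the threshold (adjusted p = 0.0682; 95% interval 0.30 to 1.07). For SERPING1 (-0.24, interval -0.47 to -0.017), C1R (-0.21, interval -0.50 to 0.085), CD55 (-0.17, interval -0.39 to 0.050) and LCN2 (-0.036, interval -0.40 to 0.32) the estimates were small and not called. The C1S estimate ran from 0.49 to 1.06 over the 19 alternatives. The C1S call was lost in 12 of 19 alternatives, with adjusted p between 0.0159 and 0.197 over them, among them the fit without the 2 unstimulated KD libraries (adjusted p = 0.0779) and without either replicate of TNF-α-stimulated control cells (0.125 and 0.197) or of unstimulated control cells (0.0716 and 0.0505). SAA1 passed in 4 of 19 alternatives, including the replicate block (adjusted p = 0.0499) and the fit without TNF-α-stimulated control replicate 2 (0.92, adjusted p = 0.0497), and without TNF-α-stimulated control replicate 1 its estimate was 0.45 (adjusted p = 0.282).

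With TNF-α present, none of the 8 tested genes was called between KD and control cells. At an adjusted p under 0.05, limma called 0 of 9, and 0.0605% of all tested genes higher and 0.0545% lower. The voom fit of the recovered reads also called 0, where it called 34 of all tested genes higher and 18 lower. At an unadjusted p under 0.05 only C1S counted, as lower, and no share of all tested genes at that threshold is given here. In C1S the estimate was -0.29 (interval -0.54 to -0.043, adjusted p = 0.519 in limma), with KD at 0.70 times the control mean. C3 was 1.15 times the control mean (0.18, interval -0.0033 to 0.37), PTX3 1.10 times (0.13, interval -0.083 to 0.35), SAA1 1.21 times (0.25, interval -0.14 to 0.64) and C1R 1.18 times (0.17, interval -0.12 to 0.46). For SERPING1 (0.014, interval -0.21 to 0.24), CD55 (0.0066, interval -0.21 to 0.23) and LCN2 (-0.067, interval -0.43 to 0.29) the interval spanned 0 nearly evenly. The SAA1 estimate was 0.48 without TNF-α-stimulated control replicate 1 and 0.015 without TNF-α-stimulated control replicate 2. For 4 of the 8, C3, C1R, C1S and PTX3, the FPKM of the groups did not overlap, as held for 46.2% of all tested genes, and with 2 libraries a group an exact permutation test cannot go below p = 0.333 (two-sided). The median over the 8 genes was 0.073, against -0.00015 over all tested genes, and none of the 8 was called in any of 19 alternatives. The number of all genes called was small and ran from 0, without TNF-α-stimulated KD replicate 2, to 98, without unstimulated control replicate 1.

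Without TNF-α, SERPING1, LCN2, SAA1 and C1R were lower in KD than in control cells, while C1S, C3, PTX3 and CD55 did not pass the test. SERPING1 fell to 0.53 times the control mean (log2 fold change -0.81 ± 0.0969, limma adjusted p = 0.00035), LCN2 to 0.37 times (-0.81 ± 0.155, adjusted p = 0.0028), C1R to 0.61 times (-0.48 ± 0.125, adjusted p = 0.0113) and SAA1 to 0.57 times (-0.54 ± 0.166, adjusted p = 0.0242). The 4 called of 9 stand beside 30.2% of all tested genes called lower and 29.8% higher in this comparison. Of the calls 49.7% were higher, and 65.3% with scaling to total reads or 37.8% with upper-quartile factors. C1S was 0.65 times the control mean and not called (-0.23, interval -0.47 to 0.019, adjusted p = 0.0983). For C3 (-0.0033, interval -0.19 to 0.18), PTX3 (0.034, interval -0.18 to 0.25) and CD55 (0.0012, interval -0.22 to 0.22) the groups overlapped. The median over the 8 genes was -0.35, against -0.0010 over all tested genes.

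These 4 decreases were measured in the libraries with the lower GC content and the higher mitochondrial share. After the GC and length correction, SERPING1 stayed called at -0.45 (adjusted p = 0.0036) while C1R (-0.23, adjusted p = 0.138), SAA1 (-0.20, adjusted p = 0.328) and LCN2 (-0.33, adjusted p = 0.0750) were not, and CD55 moved from 0.0012 to -0.46 and was called (adjusted p = 0.0052), against 0.23 with scaling to total reads (adjusted p = 0.0684). Scaling to total reads shifted the median of all genes to 0.13, and left SERPING1 (-0.57) and LCN2 (-0.66) called with PTX3 then called higher (0.27), while C1R (-0.30) and SAA1 (-0.36) were not called. Over the alternatives, adjusted p ran from 5.8e-05 to 0.0057 for SERPING1, 0.00061 to 0.0963 for LCN2, 0.0031 to 0.138 for C1R and 0.0070 to 0.328 for SAA1. Without unstimulated KD replicate 2, C1R (adjusted p = 0.0799) and SAA1 (0.146) lost their calls, and SAA1 also did without either unstimulated control replicate (0.0639 and 0.0605).

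**Figure D3:**
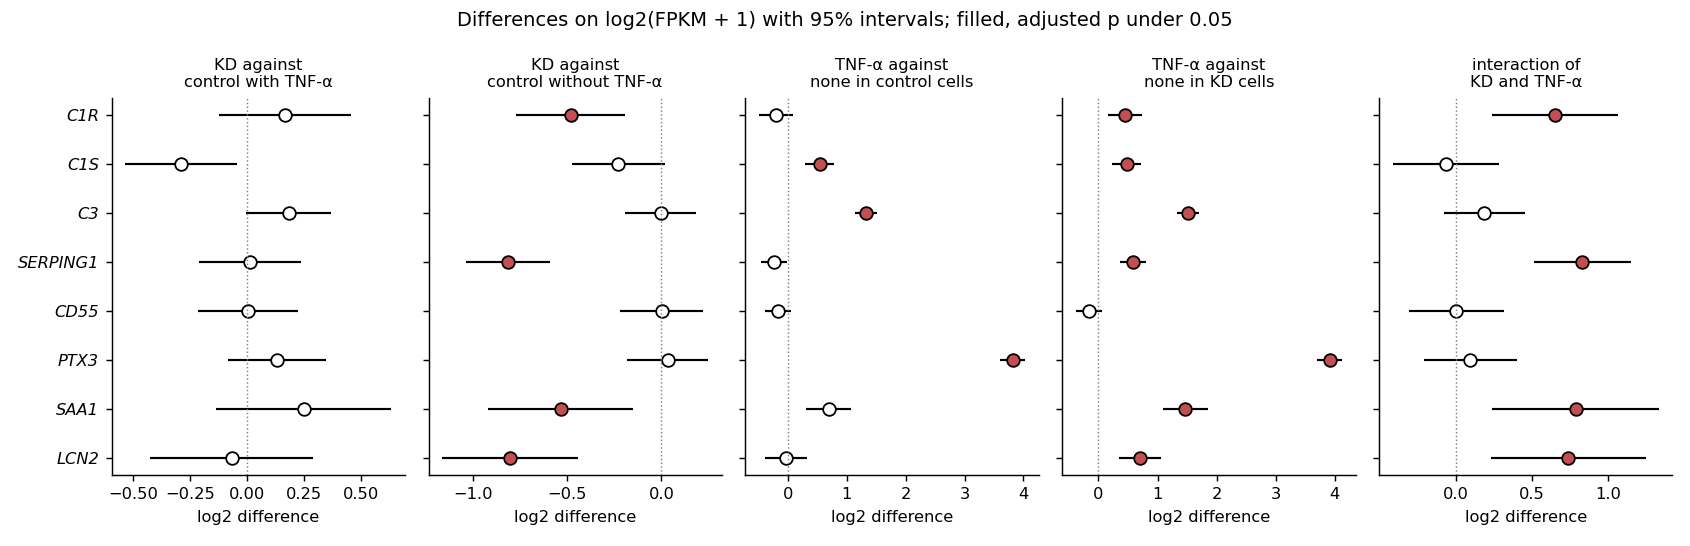
Log2 differences (horizontal axis, log2(FPKM + 1), each panel on its own scale) of the 8 tested genes in the 5 comparisons, with 95% intervals from limma; filled points had an adjusted p under 0.05. No gene is called for KD against control with TNF-α, and SERPING1, C1R, SAA1 and LCN2 are called in the 3 panels that use unstimulated KD cells.

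In KD cells, 7 of the 8 tested genes were called higher with TNF-α. PTX3 rose 17.8-fold in mean FPKM (log2 fold change 3.91 ± 0.0924, limma adjusted p = 6.5e-07), SAA1 3.99-fold (1.47 ± 0.166, adjusted p = 0.00021) and C3 3.39-fold (1.52 ± 0.0806, adjusted p = 2.1e-05). LCN2 rose 2.39-fold, C1S 2.25-fold, SERPING1 1.59-fold and C1R 1.58-fold, with adjusted p between 0.0012 and 0.0155. Only CD55 was not called (-0.16, interval -0.38 to 0.056). In this comparison 31.1% of all tested genes were called higher and 31.4% lower, and the median over the 8 genes was 0.64, against -0.015 over all tested genes. Of all calls 49.8% were higher, and 31.4% with scaling to total reads or 60.1% with upper-quartile factors. PTX3, C3, SAA1 and C1S were called in all 18 alternatives, while SERPING1 (0.19, adjusted p = 0.0933), LCN2 (0.22, adjusted p = 0.196) and C1R (0.11, adjusted p = 0.451) were not called after the GC and length correction, under which CD55 was called higher (0.28, adjusted p = 0.0354). With scaling to total reads CD55 was called lower (-0.47, adjusted p = 0.0033), so its direction in KD cells turned with the treatment of the data. C1R also lost its call without unstimulated KD replicate 2 (adjusted p = 0.0999) or either replicate of TNF-α-stimulated KD cells (0.0755 and 0.0568).

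The interaction asks whether the TNF-α response differed between KD and control cells, and it shares its libraries with the comparisons above. It was called higher for SERPING1 (0.83 ± 0.137, limma adjusted p = 0.0031), SAA1 (0.78 ± 0.235, adjusted p = 0.0278), LCN2 (0.74 ± 0.219, adjusted p = 0.0269) and C1R (0.65 ± 0.177, adjusted p = 0.0192), that is for 4 of 9, where 23.8% of all tested genes were called higher and 22.3% lower. Of all calls 51.7% were higher, and 32.9% with scaling to total reads or 64.9% with upper-quartile factors. For those 4 the unstimulated KD libraries were the 2 lowest of the 8, and the stimulated groups overlapped for SERPING1, SAA1 and LCN2. The interaction was not called for C3 (0.19, interval -0.078 to 0.45), PTX3 (0.097, interval -0.21 to 0.40), C1S (-0.062, interval -0.41 to 0.29) and CD55 (0.0054, interval -0.31 to 0.32). In simulated data this test missed true differences, so a missing call does not show an equal response. C3 was called with upper-quartile factors (0.38, adjusted p = 0.0298), and CD55 after the GC and length correction (0.47, adjusted p = 0.0310, or 0.0419 with the replicate block). Only SERPING1 kept its call in all 17 alternatives. C1R was called in 10, LCN2 in 8 and SAA1 in 7, and leaving out 1 library was enough to end each of those 3 calls: without TNF-α-stimulated control replicate 2 or either TNF-α-stimulated KD replicate, only SERPING1 was called.

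**Figure D4:**
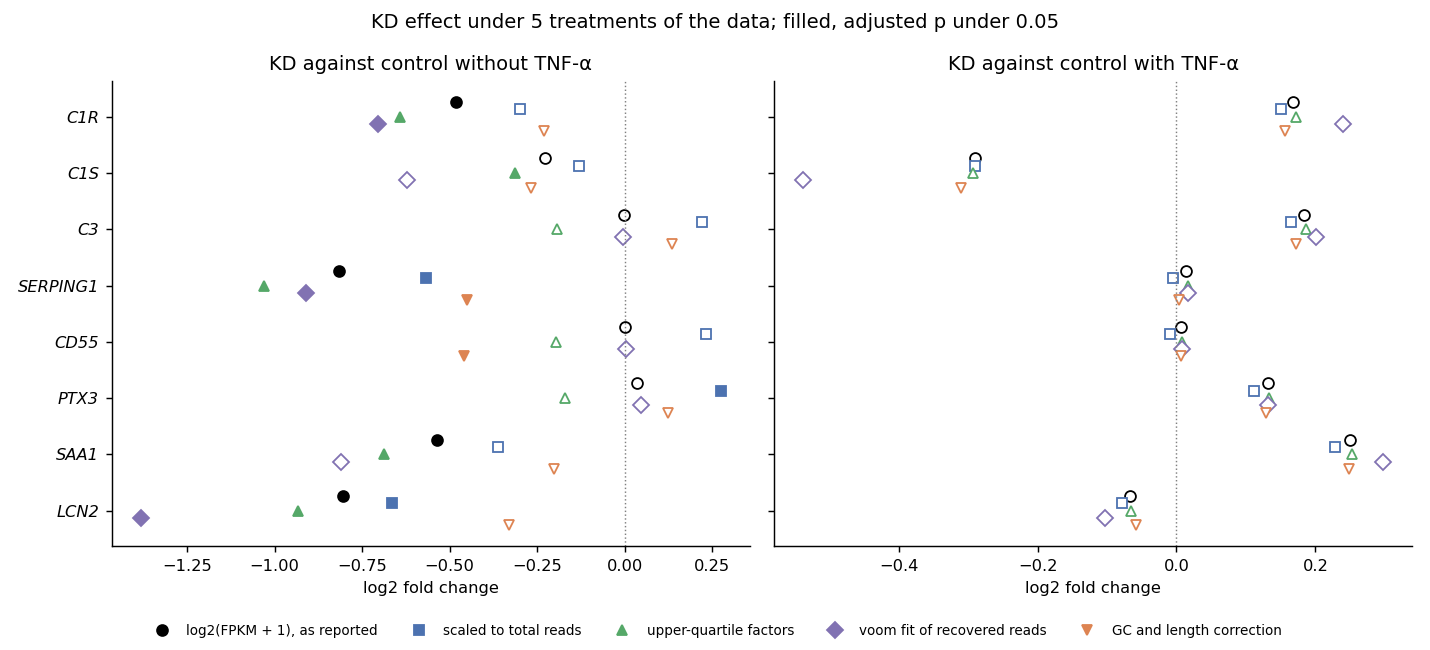
Log2 fold change of KD against control (horizontal axis) for the 8 tested genes without TNF-α (left) and with TNF-α (right) under 5 treatments of the data, by marker; filled markers had an adjusted p under 0.05. On the left the markers of 1 gene spread widely, for CD55 from -0.46 under the GC and length correction to 0.23 with scaling to total reads, and on the right none is filled.

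Most of the other genes of the pathways were below the read filter. Of 85 genes in the lists of complement activation, terminal pathway, regulators, receptors and acute-phase proteins, 35 passed the read filter, 50 did not, and 17 had no read in any library. C1QA, C1QB and C1QC, the chains of C1q, had no read in any library, and neither did MBL2, the liver lectin of the lectin pathway, or the acute-phase genes CRP, APCS, HP, FGA and FGB. With TNF-α in control cells 8 of the 35 were called, all higher, where 3.1% of all tested genes were called higher and 1.14% lower, and the count was 6 with scaling to total reads or upper-quartile factors and 7 after the GC and length correction. The lists were chosen with earlier results of these data known, so such counts describe them and are no test of enrichment. For KD against control with TNF-α limma called 0 of the 35, where 0.0605% of all tested genes were called higher and 0.0545% lower. The voom fit also called 0, where it called 34 of all tested genes higher and 18 lower. At an unadjusted p under 0.05 there were 4, for which no share of all tested genes is given here. The other comparisons use the unstimulated KD libraries, which stood apart from the rest. With TNF-α in KD cells 20 of the 35 were called higher and 3 lower, where 31.1% of all tested genes were called higher and 31.4% lower. The counts were 14 and 9 with scaling to total reads, 21 and 3 with upper-quartile factors, and 18 and 8 after the GC and length correction. Without TNF-α, KD against control had 5 called higher and 12 lower, where 29.8% of all tested genes were called higher and 30.2% lower. Here the counts were 11 and 8 with scaling to total reads, 3 and 14 with upper-quartile factors, and 9 and 12 after the GC and length correction. Median log2 fold changes over the 35 were -0.0069 for TNF-α in control cells, 0.40 for TNF-α in KD cells, 0.0066 for KD with TNF-α and -0.041 for KD without.

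In the activation list, 9 of 22 genes were tested and C3 and C1S were the genes called for TNF-α in control cells. Its most abundant gene was CFD, which encodes factor D, the protease that cuts factor B, at 15.3 and 12.01 FPKM in unstimulated control cells, 5.08 and 4.66 in unstimulated KD cells, 10.9 and 12.8 in stimulated control cells and 11.8 and 13.8 in stimulated KD cells. As for SERPING1 and LCN2, the unstimulated KD libraries of CFD were the lowest (log2 fold change -1.31, adjusted p = 0.00024 in limma). The CFD estimate was -1.07 with scaling to total reads and -0.65 after the GC and length correction, and it was called in all 18 alternatives run for it. The terminal pathway had 2 of 7 genes tested, and limma called 0 in any comparison, with 0 at an unadjusted p under 0.05. Of all tested genes limma called the fewest for KD with TNF-α, 0.0605% higher and 0.0545% lower. It called the most for TNF-α in KD cells, 31.1% higher and 31.4% lower. For TNF-α in KD cells the voom fit called 1 terminal gene, where it called 5230 of all tested genes higher and 5266 lower. Of 18 regulators 7 were tested, and SUSD4, a membrane inhibitor of convertases, was called for TNF-α in control cells (0.45, adjusted p = 0.0464), from 3.57 and 3.19 to 4.84 and 5.09 FPKM. That call lay near the threshold, and its alternatives are not given here. CLU, the secreted chaperone clusterin that also binds terminal complexes, was the most abundant regulator at 250.5 to 499 FPKM.

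Of 10 receptor genes 6 were tested. ITGAM, the α chain of complement receptor 3, was called for TNF-α in control cells (0.36, adjusted p = 0.0362) on few reads, 7 and 4 without and 34 and 30 with TNF-α, and 2, 5, 28 and 42 in KD cells. The most abundant gene of that list was C1QBP, a mostly mitochondrial protein first found through its binding of C1q, at 49.3 to 95.8 FPKM. Of 28 acute-phase genes 11 were tested and 4 called higher for TNF-α in control cells, beside the 3.1% of all tested genes called higher and 1.14% lower. After PTX3 these were SOD2, mitochondrial superoxide dismutase (1.97, adjusted p = 4e-05), SERPINA1, which encodes α1-antitrypsin (1.22, adjusted p = 0.00020), and F3, tissue factor (0.41, adjusted p = 0.0439). The calls of ITGAM and F3 lay near the threshold, and their alternatives are not given here. SERPINA1 stood at 34.7 and 30.2 FPKM in unstimulated control cells, 26.5 and 27.0 in unstimulated KD cells, 76.3 and 76.9 in stimulated control cells and 98.2 and 94.7 in stimulated KD cells. The stimulated KD libraries of SERPINA1 were highest, 1.26 times the stimulated control mean, which was not called (0.33, adjusted p = 0.279). FTL and FTH1, the ferritin chains, were the most abundant of the list, FTL at 1475 to 4347 FPKM.

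Of 21 genes that encode inducers of the acute phase (cytokines, their receptors and transcription factors), 20 were tested. With TNF-α in control cells 10 were called, all higher, against the 3.1% of all tested genes called higher and 1.14% lower, led by the NF-κB subunit genes RELB (2.61, adjusted p = 1.7e-05), NFKB2 (2.03, adjusted p = 4.1e-05) and NFKB1 (1.95, adjusted p = 6.9e-05) and by IRF1 (1.73, adjusted p = 0.00027). This list too was chosen with earlier results of these data known, so its count is no test of enrichment. IL1B, which encodes interleukin 1β, was the single gene of all 6 pathway lists called for KD against control with TNF-α (0.62, limma adjusted p = 0.0162). The IL1B call was lost in 11 of 19 alternatives, among them the voom fit (adjusted p = 0.0742), the fit without the 2 unstimulated KD libraries (adjusted p = 0.0711) and the fits without any 1 of the 4 stimulated libraries (adjusted p from 0.128 to 0.21). Over the 19 alternatives the IL1B estimate ran from 0.58 to 1.94, and stimulated KD cells stood at 3.93 times the stimulated control mean. The level of IL1B was low, at 0.0431 and 0.0187 FPKM in unstimulated control cells, 0.212 and 0.167 in unstimulated KD cells, 0.264 and 0.189 in stimulated control cells and 0.897 and 0.879 in stimulated KD cells. The stimulated KD libraries of IL1B were above all others, on 48 and 43 reads against 13 and 9 in stimulated control cells.

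**Figure D5:**
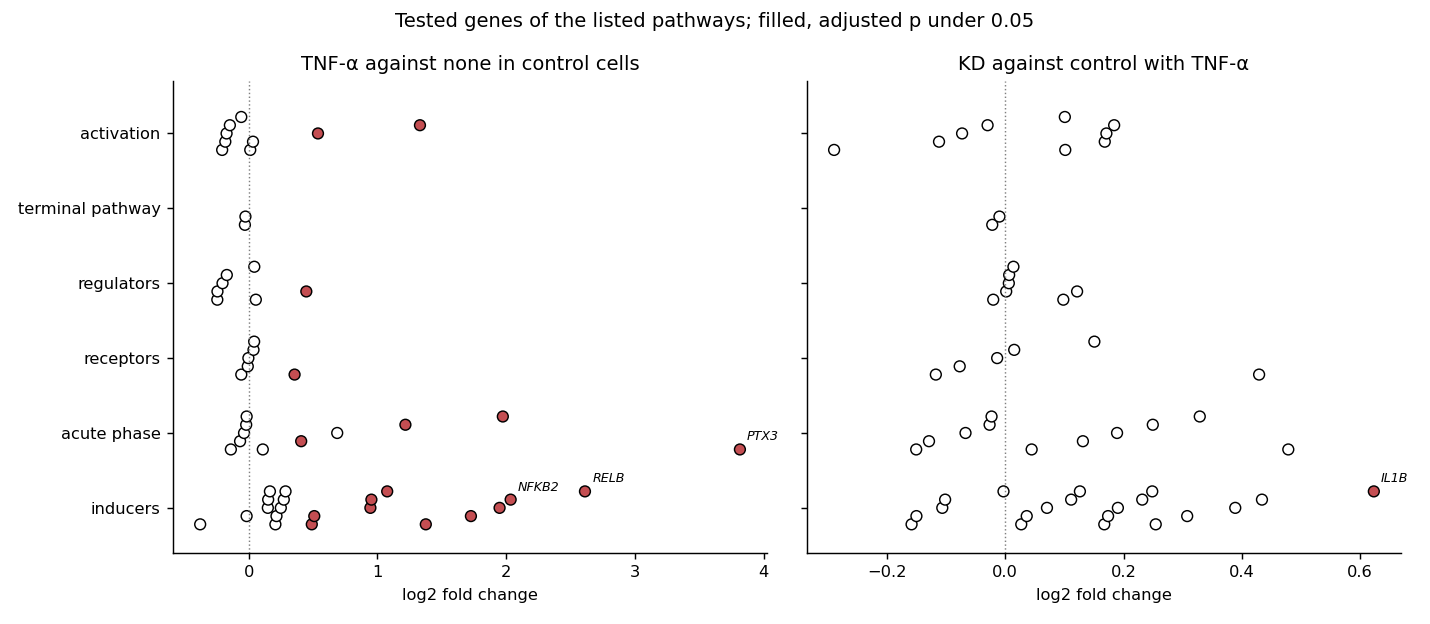
Log2 fold change (horizontal axis) of the tested genes of 6 pathway lists for TNF-α in control cells (left) and for KD against control with TNF-α (right); each point is a gene, filled where the adjusted p was under 0.05. PTX3 lies farthest to the right at 3.82 on the left, and IL1B is the only filled point on the right.

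The shape of each pattern over the 8 libraries was set beside that of all 16528 tested genes by Pearson's r of log2(FPKM + 1), as a description of 4 groups whose libraries share their scaling. C3 was most like TRAF1, CSF2 and MMP9 (r of 0.999, 0.998 and 0.998), and PTX3 was most like CCL2, CSF2 and TNF (0.999, 0.998 and 0.998). C1S was most like ATF3, DYRK1B and MEOX1 (0.979, 0.969 and 0.968), and SAA1 most like TUBAP2, VSTM1 and IKBKB (0.989, 0.985 and 0.980). LCN2 was most like LCMT1, PA2G4 and RPS7 (0.992, 0.991 and 0.990), SERPING1 most like ACAT2, CENPV and KIF17 (0.996, 0.996 and 0.991), C1R most like AK5, PDIA6 and LINC02584 (0.987, 0.986 and 0.986), and CD55 most like ATXN10, SNHG3 and RHNO1 (0.980, 0.970 and 0.970). High values were common for LCN2, with 2088 of 16527 other genes at an r above 0.9, and for SERPING1, with 1704. The counts were 841 for SAA1, 815 for C1R, 498 for C3, 447 for PTX3, 120 for C1S and 116 for CD55.

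Among the 8 genes themselves, over the same 8 libraries, C3 and PTX3 ran together (r = 0.997) and SAA1 was close to both (0.921 and 0.907). SERPING1, LCN2 and C1R formed another set of like patterns (0.940 for SERPING1 with LCN2, 0.909 for SERPING1 with C1R and 0.868 for C1R with LCN2). Each of these genes was lowest in the unstimulated KD libraries, which also stood apart in GC content and mitochondrial share. Whether their likeness goes beyond those libraries was not tested. The r of C3 with SERPING1 was 0.281, and CD55 ran against C3 (-0.939) and PTX3 (-0.931). These r used the deposited scaling, while the direction of CD55 with TNF-α in KD cells turned with the treatment of the data.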

How the data were processed

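Bulk RNA-seq libraries of U2OS cells were analysed in 4 groups of 2, taken from the labels of the samples. Sequencing was done at Novogene on an Illumina instrument. The submitters' processing notes name CASAVA 1.8, fastp, HISAT2 2.0.5, featureCounts 1.5.0-p3 and DESeq2 1.20.0 and the build GRCh38, without the role of each tool. The authors deposited FPKM values for 58735 genes, with gene length and position in other columns, which match GENCODE release 29. Multiplied by gene length and divided by a per-library step, 100% of the values came out whole (within 0.05 of a read), which gave back the reads. The size behind the deposited FPKM equals a median-of-ratios size over the 8 libraries.

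The test was limma 3.58.1 (R 4.3.3) on log2(FPKM + 1), with a mean per group over all 8 libraries (4 residual degrees of freedom), a variance trend, Benjamini-Hochberg adjustment over 16528 genes and a threshold of 0.05. The study's methods name edgeR, which was not run here, and the recovered reads were fitted with voom. Correlations and summaries used Python 3.11.15. In simulated data with known changes in TNF-α-stimulated KD cells alone, the fit called most of the changed genes in both comparisons of those cells. It called none of them in the interaction, where each had a true difference, so the interaction test can miss real differences. The simulation used the same setting of spread for all genes and no outlying group of libraries, unlike these data. Alternatives were a pseudocount of 0.1, no read filter, a mean of at least 1 CPM, scaling to total reads, upper-quartile factors, a voom fit of the recovered reads, fewer libraries in the fit, a replicate block, a correction on GC content and length by splines with 5 degrees of freedom, and leaving out each library.

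The 9 genes and the gene lists were chosen with earlier results of these data known. Named from each list were the genes called for KD against control with TNF-α, the 4 largest changes called for TNF-α in control cells, and up to 3 of the most abundant genes. Genes named beyond this rule, such as those with no read, were chosen after their values were seen. SOD2 has 2 identifiers, of which the longer was used.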

Additional observations from a re-analysis of the deposited data

Results flagged for a closer look

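The effect of KD differed between cells with and without TNF-α by a test of the difference itself, the interaction term in limma, for 4 of the 9 genes. The difference was 0.83 for SERPING1, 0.78 for SAA1, 0.74 for LCN2 and 0.65 for C1R, as the KD effect with TNF-α minus the KD effect without it on the log2(FPKM + 1) scale, with adjusted p of 0.0031, 0.0278, 0.0269 and 0.0192. In the same test 23.8% of all tested genes were called in this direction and 22.3% in the other, and the 2 unstimulated KD libraries, on which the difference rests, also stood apart in GC content, mitochondrial share and number of genes with a read. After the GC and length correction the difference was 0.45 for SERPING1, 0.45 for SAA1, 0.27 for LCN2 and 0.39 for C1R, and of these SERPING1 was called (adjusted p = 0.0239). Whether library preparation or the cells made those 2 libraries differ cannot be told apart. With 2 libraries a group, no test for an outlying library was made.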

How the results depend on the processing

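Of 728 member values under the alternatives, 622 kept their direction and their side of the threshold, 62 lost a call, 14 gained one and 34 turned sign, 4 of which, all CD55, are among those that gained a call. The calls of PTX3 and C3 for TNF-α in both kinds of cell, of SAA1 and C1S for TNF-α in KD cells, and of SERPING1 for KD without TNF-α and for the interaction held under every alternative run. The cause of the other changes was not tested.

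Sign changes were mostly in values near 0. With scaling to total reads, SERPING1 (-0.0046) and CD55 (-0.0091) turned for KD with TNF-α, C3 (0.22) for KD without TNF-α, and C3 (-0.056), PTX3 (-0.16) and CD55 (-0.24) for the interaction. With upper-quartile factors, PTX3 (-0.17) and CD55 (-0.20) turned for KD without TNF-α, CD55 (0.0033) for TNF-α in KD cells and C1S (0.021) for the interaction. C1S also turned for the interaction with a pseudocount of 0.1 (0.044) and in the voom fit (0.083). With the GC and length correction, with or without the replicate block, C3 (0.13) and CD55 (-0.46) turned for KD without TNF-α and CD55 (0.28) for TNF-α in KD cells. Leaving out 1 library, values with a sign change ran, for KD with TNF-α, from -0.057 to 0.084 in SERPING1, from -0.0042 to 0.017 in CD55 and from -0.14 to 0.0013 in LCN2. For KD without TNF-α they ran from -0.018 to 0.011 in C3, from -0.067 to 0.14 in PTX3 and from -0.051 to 0.054 in CD55, for LCN2 with TNF-α in control cells from -0.25 to 0.18, and for the interaction from -0.0050 to 0.20 in PTX3, from -0.047 to 0.058 in CD55 and from -0.19 to 0.064 in C1S.

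Member counts moved for KD without TNF-α from 4 to 2 with the GC and length correction, with or without the block, to 3 with no read filter, with scaling to total reads and in the voom fit, and to 5 with upper-quartile factors. For the interaction the count went from 4 to 2 with no read filter and with the GC and length correction, with or without the block, to 1 with scaling to total reads, to 3 in the voom fit and to 5 with upper-quartile factors. Under the same alternatives the counts ran from 2 to 4 for TNF-α in control cells and from 5 to 7 for TNF-α in KD cells. Leaving out 1 library, the counts ran from 2 to 4 for KD without TNF-α (2 without unstimulated KD replicate 2), from 1 to 4 for the interaction, from 6 to 7 for TNF-α in KD cells and from 2 to 3 for TNF-α in control cells. Among all genes, KD against control with TNF-α called 19, and 7 with no read filter, 12 with upper-quartile factors, 52 in the voom fit, 39 in the fit of the libraries compared, 7 without the 2 unstimulated KD libraries, 10 with the replicate block, 64 with the GC and length correction, 44 with it and the block, and 0 to 98 without 1 library. It called 97 or 98 without an unstimulated control library, 7 without an unstimulated KD library and 0 to 3 without a stimulated library. TNF-α in control cells called 701, and 368 with no read filter, 238 in the fit of the libraries compared, 443 without the 2 unstimulated KD libraries, and 229 to 2130 without 1 library, with 2130 without unstimulated control replicate 2. Leave-one-out counts of all genes ran from 7580 to 10352 for KD without TNF-α, from 8083 to 11129 for TNF-α in KD cells and from 5448 to 8956 for the interaction.

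The labels number the replicates 1 and 2 in each group without saying what a number shares. The correlation of deviations between groups ran from -0.191, for unstimulated KD with stimulated control cells, to 0.350, for the 2 unstimulated groups, and the numbers were not taken as pairs. With the replicate block the C1S call for TNF-α in control cells was lost (adjusted p = 0.0545) and SAA1 gained one (0.0499), so that count stayed at 3. Scaling to total reads moved the median of all genes to 0.13 for KD without TNF-α, -0.19 for TNF-α in KD cells and -0.14 for the interaction, and upper-quartile factors to -0.11, 0.079 and 0.12. CFB, with 39 reads in all, and to a lesser degree LCN2 and SAA1 are limited by depth.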
